A study of Mus musculus with 7 samples.

Results

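The Period genes *Per1*, *Per2* and *Per3* were described through the ChIP-seq peaks of BMAL1, REV-ERBα and RNA polymerase II (RNAP2) that fall on them in mouse skeletal muscle. All peaks of the 6 deposited lists were taken that overlap a gene body or lie within 10 kb of an annotated transcription start site (TSS) of one of the 3 genes (GRCm38/mm10, GENCODE M21). This gave 56 of 527912 peaks, on 3 of 21938 protein-coding genes. *Per1* held 21 of the 56 peaks, *Per2* 17 and *Per3* 18.

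ChIP-seq sequences the DNA recovered with an antibody against a chromatin protein. It was run here on gastrocnemius of male C57BL/6J mice labelled wild type, 3 to 5 months old and kept under 12 hours of light from ZT 0, where ZT (Zeitgeber time) counts hours from lights on. Muscles taken at ZT 4 served for BMAL1 and RNAP2 and those taken at ZT 8 for REV-ERBα, with 2 biological replicates of each. The label of the input gives ZT 4. REV-ERBα was precipitated with a mixture of antibodies, and no group of mice lacking the targeted protein was analysed here. Because each factor was mapped at a single time, factor and time cannot be told apart. Peaks came from whole muscle tissue, so fewer cells of a type and less binding per cell cannot be told apart.

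PER proteins are the negative arm of the circadian clock. With CRY proteins they return to the nucleus and repress the activator pair CLOCK and BMAL1, which drives *Per* transcription from E-boxes, of which CACGTG is the canonical form. REV-ERBα (*Nr1d1*) is a nuclear receptor that represses transcription, most directly at sites built on the core AGGTCA, and can also be recruited through other factors. D-boxes (TTATGTAA and relatives) are bound by the activators DBP, TEF and HLF and by the repressor NFIL3, and the cyclic AMP response element (CRE, TGACGTCA) is bound by CREB. PER1 and PER2 are the core repressors, while loss of PER3 alone has milder effects on rhythms.

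The 6 lists differ in length, from 28881 peaks (REV-ERBα replicate 1) to 177669 (BMAL1 replicate 2), and were called by the authors with the permissive cutoff p = 0.05, so their values were read beside the lists themselves. Each peak has a −log10 p, a −log10 q and a fold enrichment over input at its summit, the base of highest signal. The median −log10 p ran from 1.87 to 3.21 across lists. RNAP2 regions in both replicates were found at 5 of 5 skeletal muscle genes (*Acta1*, *Ckm*, *Myh4*, *Tnnt3*, *Mylpf*) and at 0 of 5 markers of liver, fat, leukocytes, endothelium and glia. Over all protein-coding genes the share was 41.1%. The other markers still had RNAP2 peaks in single lists, the highest at the leukocyte marker *Ptprc* with a −log10 p of 4.71 and 3.97. Peak values of different antibodies are not on a common scale. With 2 replicates against 2 no exact permutation test could go below p = 0.333, so all comparisons below are descriptions with both replicate values.

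Most regions found in both replicates lay at the start sites of the genes, and sequences from these places are shown first because the results turn on what lies under the peaks. Distances are counted along the strand of the gene from the TSS base, which is 0. Capitals mark exact matches to a searched motif, namely CACGTG (E-box), CACGTT (the variant E-box known from *Per2*), TTATGTAA or TTACGTAA (D-box), AGGTCA (receptor core, which reads TGACCT on the other strand) and TGACGTCA (CRE). All runs are read 5′ to 3′ on the strand of the gene from the RefSeq copy of GRCm38. The *Per1* upstream site is chr11:69094823-69094948 on the plus strand, before the TSS of transcript Per1-202, and contains all BMAL1 and REV-ERBα summits of that site. The second *Per1* E-box is in chr11:69095037-69095102 on the plus strand. The promoter of transcript Per1-201 is chr11:69098743-69098828 on the plus strand. The *Per2* promoter is chr1:91459314-91459598 on the minus strand and runs from the REV-ERBα summits to the first bases of exon 1. The *Per3* promoter is chr4:151044666-151044890 on the minus strand and ends just before the TSS.
Per1 upstream site: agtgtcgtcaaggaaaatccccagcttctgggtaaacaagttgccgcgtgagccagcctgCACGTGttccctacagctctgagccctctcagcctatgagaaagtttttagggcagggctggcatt
Per1 second E-box: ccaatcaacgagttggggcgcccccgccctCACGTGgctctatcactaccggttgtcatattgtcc
Per1-201 promoter: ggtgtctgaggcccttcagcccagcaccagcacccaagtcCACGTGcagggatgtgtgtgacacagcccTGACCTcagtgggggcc
Per2 promoter: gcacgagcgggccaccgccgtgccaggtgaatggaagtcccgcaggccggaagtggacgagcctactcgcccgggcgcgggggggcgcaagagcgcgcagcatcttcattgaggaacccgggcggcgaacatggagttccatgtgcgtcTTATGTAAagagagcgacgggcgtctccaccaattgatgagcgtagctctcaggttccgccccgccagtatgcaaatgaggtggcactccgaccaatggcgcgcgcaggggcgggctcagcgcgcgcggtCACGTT
Per3 promoter: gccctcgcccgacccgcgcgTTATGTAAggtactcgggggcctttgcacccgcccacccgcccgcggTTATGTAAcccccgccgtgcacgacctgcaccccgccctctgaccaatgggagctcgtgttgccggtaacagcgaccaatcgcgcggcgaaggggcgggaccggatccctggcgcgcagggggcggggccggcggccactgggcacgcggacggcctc

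*Per1* (ENSMUSG00000020893, plus strand of chromosome 11, 69095217 to 69109960) has 6 annotated transcripts with 6 start sites. The outermost start, of Per1-202, lies at −3731 bp from the start of Per1-201. *Per2* (ENSMUSG00000055866, minus strand of chromosome 1, 91415982 to 91459324) has 2 transcripts, and *Per3* (ENSMUSG00000028957, minus strand of chromosome 4, 151003652 to 151044665) has 5, the longest being Per2-201 and Per3-201. The windows searched were 25306 bp for *Per1*, 53343 bp for *Per2* and 51014 bp for *Per3*, around a median of 30206 bp over protein-coding genes. *Per3* lies within the annotated span of *Camta1* on the same strand, so RNAP2 signal of these genes over the *Per3* body cannot be told apart.

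Merging overlapping peaks of the same factor gave 44 regions at the 3 genes, of which 11 had a peak in both replicates. Among these were 3 BMAL1 regions, 1 at each gene. REV-ERBα had 4, with 2 at *Per1* and 1 each at *Per2* and *Per3*. RNAP2 had 3 at *Per1*, 0 at *Per2* and 1 at *Per3*. Over the whole lists, 2742 of 209609 BMAL1, 1263 of 57452 REV-ERBα and 10752 of 245088 RNAP2 regions had a peak in both replicates. Of the 56 peaks, 18 had a −log10 q of at least 1.3, which is a q-value of 0.05, and 20 were at or below the median −log10 p of their own list. The share of a whole list with such a −log10 q ran from 0.0203% (BMAL1 replicate 2) to 12.5% (RNAP2 replicate 1).

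**Figure D1:**
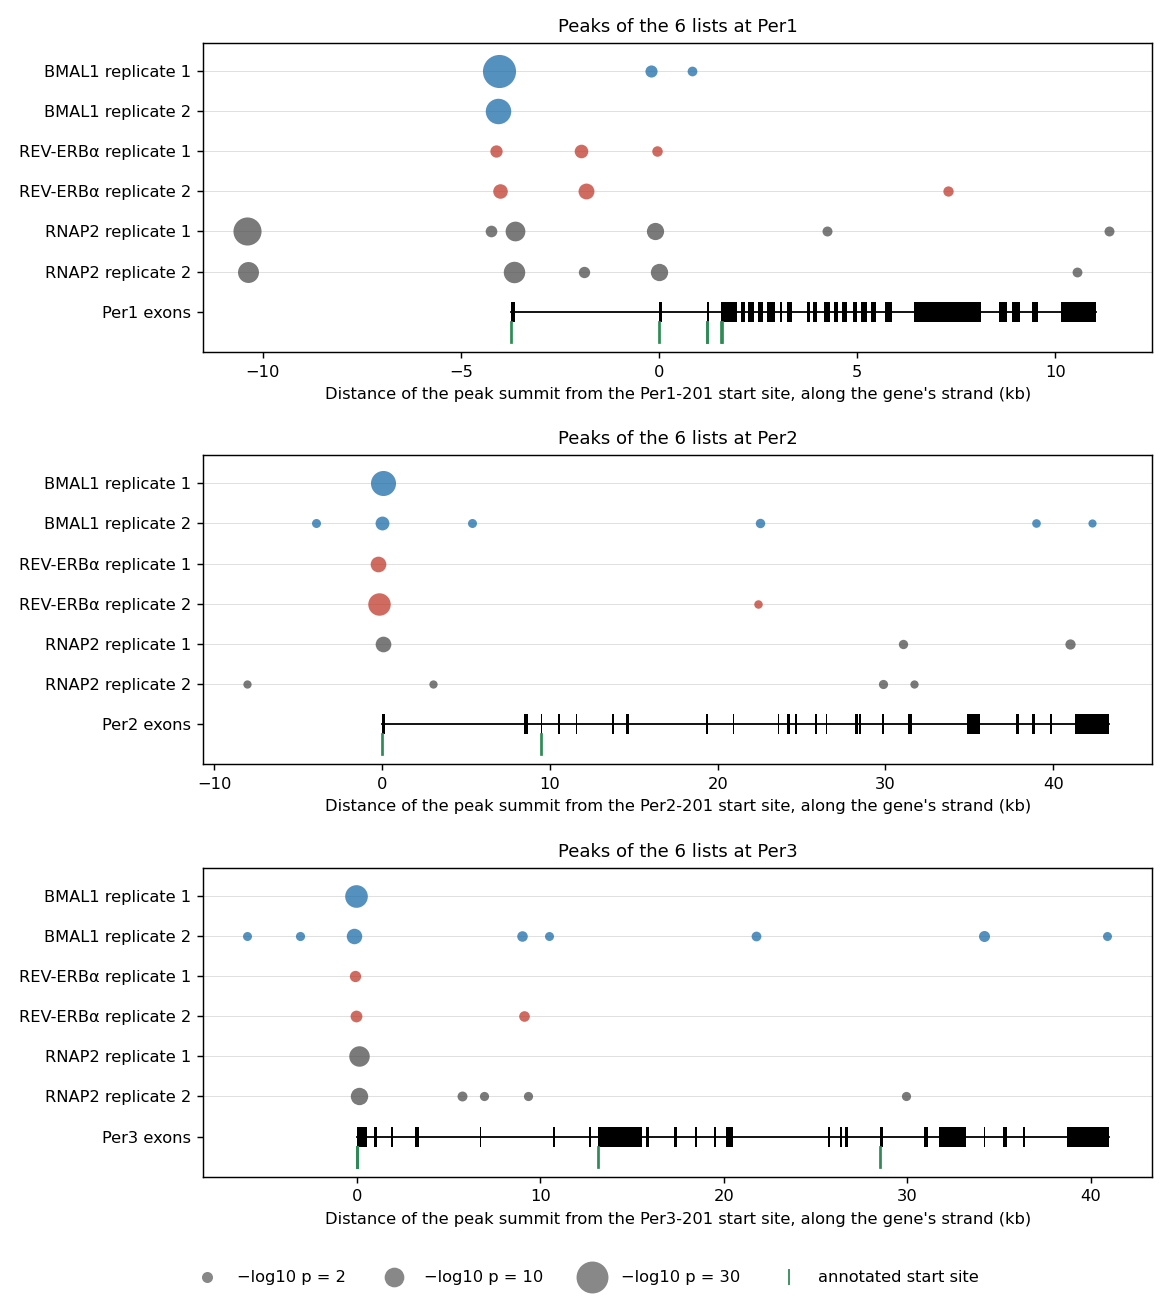
Peak summits of the 6 lists along *Per1*, *Per2* and *Per3*, by distance from the named start site in kb. Circle area grows with −log10 p, black boxes are exons of all transcripts and green ticks are annotated start sites. The large circles of *Per2* and *Per3* stand at their start sites, those of *Per1* upstream of and at its first 2 starts and at the *Vamp2* promoter at the far left, and BMAL1 replicate 2 adds weak peaks along *Per2* and *Per3*.

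BMAL1, the DNA-binding activator of the clock, had its strongest peaks of the Period genes at the upstream start of *Per1*. The −log10 p of that region (chr11:69094652-69095279) was 36.5 in replicate 1 and 21.2 in replicate 2, where it was the peak of rank 2 among 34737 and of rank 3 among 177669. Fold enrichment over input was 8.67 and 7.44, a mean of 8.05 ± 0.873 (SD, n = 2). Summits of the replicates lay at −322 and −346 bp from the TSS of Per1-202, only 24 bp apart, against a median of 245 bp over all BMAL1 regions in both replicates. When these 2742 regions were ordered by the lower −log10 p of their replicates, the *Per1* region was of rank 2.

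At *Per2*, the BMAL1 region (chr1:91458994-91459817) reached 20.5 on the −log10 p scale in replicate 1 and 5.68 in replicate 2. Fold enrichment was 7.34 and 3.74, a mean of 5.54 ± 2.54 (SD, n = 2), the widest spread of the 3 genes. The −log10 q of 0.334 in replicate 2 was under the limit of 1.3, although the peak was of rank 68 in that list. Both summits lay in the 5′ UTR of exon 1, at +42 and +18 bp from the TSS and again 24 bp apart. Its rank by the lower −log10 p was 26 of 2742.

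The BMAL1 region at *Per3* (chr4:151044494-151045023) reached 16.6 and 7.30 on the −log10 p scale, and its fold enrichment was 4.86 and 3.81, a mean of 4.34 ± 0.747 (SD, n = 2). These peaks were of rank 17 and 28 in their lists, and the region was of rank 18 by its lower value. Its summits were at −42 and −153 bp, and so 111 bp apart. In replicate 1 the −log10 p fell in the order *Per1*, *Per2*, *Per3*, and in replicate 2 in the order *Per1*, *Per3*, *Per2*. *Per1* was thus the highest in both, while *Per2* and *Per3* changed places and their fold enrichments overlapped.

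A BMAL1 region in both replicates was present at 3 of 3 Period genes and in the same kind of window at 6.81% of all 21938 protein-coding genes. Within 1 kb of a TSS, which all 3 regions satisfy, the share of all genes was 0.843%. A peak in a single list said much less: 38.2% of genes had a peak of BMAL1 replicate 1 in their window and 84.4% had one of replicate 2, and all 3 Period genes did too.

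The other BMAL1 peaks at the Period genes appeared in 1 replicate only. Replicate 2 listed 5 further peaks at *Per2* and 7 at *Per3*, with a −log10 p between 1.40 and 3.26, and 7 of these 12 were at or below the list median of 1.87. The highest of them, with a −log10 p of 3.26, was in coding exon 18 of *Per3*. Those in exon 23 and intron 21 of *Per2* lay nearer to a TSS of the neighbouring *Hes6* than to one of *Per2*. That in exon 21 of *Per3* lay nearer to a TSS of *Uts2*. Replicate 1 listed none there, but had 2 peaks in introns of *Per1* transcripts that replicate 2 lacked, with a −log10 p of 4.14 at the Per1-201 promoter and 2.35 further downstream.

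**Figure D2:**
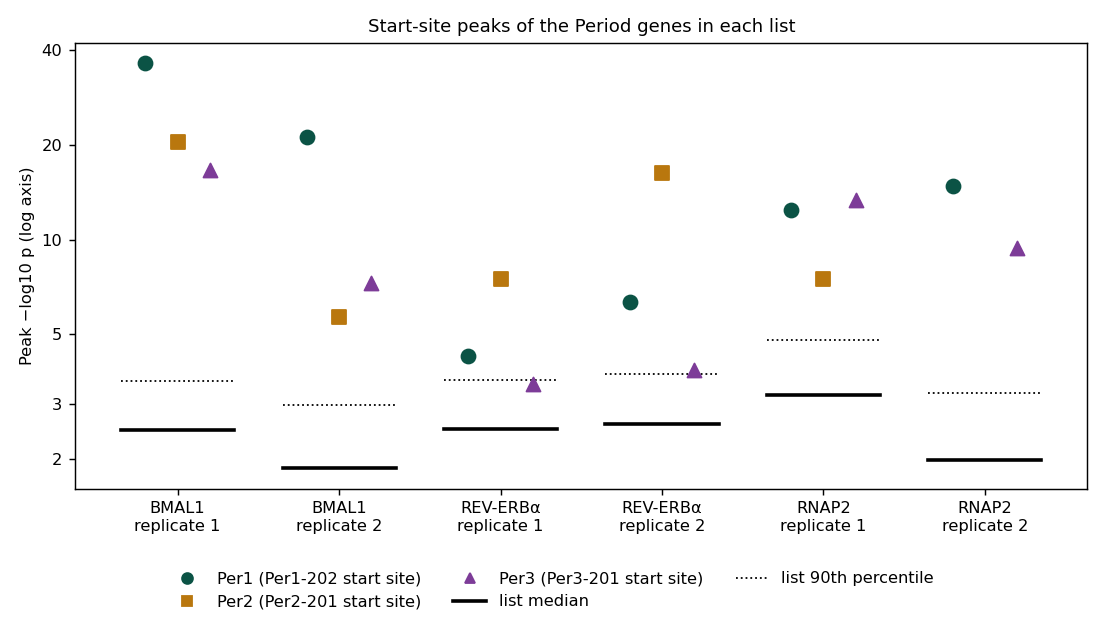
The −log10 p (log axis) of the start-site peak of each Period gene in the 6 lists, with the median (solid line) and the 90th percentile (dotted line) of each list. All BMAL1 points and all RNAP2 points are above the dotted line of their list and no point is drawn for *Per2* in RNAP2 replicate 2, where no such peak was listed. For REV-ERBα, *Per2* is the highest in both lists and *Per3*, with 3.48 and 3.84, lies near the dotted lines.

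REV-ERBα, the repressor, gave another order of the genes. Its *Per2* region (chr1:91458955-91459785) reached 7.49 on the −log10 p scale in replicate 1 and 16.3 in replicate 2, and its fold enrichment was 4.02 and 6.49, with a mean of 5.26 ± 1.74 (SD, n = 2). At the upstream *Per1* site (chr11:69094663-69095196) the fold enrichment was 2.52 and 3.37, a mean of 2.95 ± 0.600 (SD, n = 2). The *Per3* region (chr4:151044560-151045273) had the lowest values, 3.48 and 3.84 on the −log10 p scale and 2.26 and 2.46 in fold enrichment, with a mean of 2.36 ± 0.142 (SD, n = 2). *Per2* was the highest and *Per3* the lowest at the start sites in both lists, and the fold enrichments of *Per2* did not overlap those at the start sites of *Per1* and *Per3*.

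Only *Per2* had a −log10 q of at least 1.3 in both REV-ERBα lists, with 2.95 and 11.3. *Per1* passed in replicate 2 only, with 1.91 upstream and 3.15 in the intron against 0.142 and 1.07 in replicate 1, and *Per3* was listed at 0 in both. By the lower −log10 p, the *Per2* region was of rank 165 among the 1263 REV-ERBα regions in both replicates. The *Per1* intron region was of rank 219, the *Per1* upstream region of rank 291 and the *Per3* region of rank 384. All 4 were above the median region, whose lower −log10 p was 2.50.

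REV-ERBα regions in both replicates were present at 3 of 3 Period genes, against 4.44% of all protein-coding genes in the same window and 2.00% within 1 kb of a TSS. Single REV-ERBα lists had a peak in the window of 38.7% (replicate 1) and 40.1% (replicate 2) of genes, and at all 3 Period genes.

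Of the 4 REV-ERBα regions in both replicates at the Period genes, 1 lacked a BMAL1 peak in either list, and it was at *Per1*. The share of all 1263 REV-ERBα regions in both replicates that lack a BMAL1 peak is not given here. This count is therefore not read as particular to *Per1*. The region lies at chr11:69096787-69097332 in intron 1 of Per1-202, between the first 2 start sites of the gene. Its fold enrichment of 3.35 and 4.12, a mean of 3.73 ± 0.542 (SD, n = 2), was higher than that of the upstream site in each replicate, although the ranges over replicates overlapped. The summits were at +1767 bp from the TSS of Per1-202 in replicate 1 and −1841 bp from that of Per1-201 in replicate 2, and 123 bp apart. RNAP2 replicate 2 listed a peak over it with a −log10 p of 3.51, and RNAP2 replicate 1 listed none. The run from 20 bp before the first summit to the CRE is chr11:69096964-69097217 on the plus strand, with that CRE in capitals.
Per1 REV-ERBa site: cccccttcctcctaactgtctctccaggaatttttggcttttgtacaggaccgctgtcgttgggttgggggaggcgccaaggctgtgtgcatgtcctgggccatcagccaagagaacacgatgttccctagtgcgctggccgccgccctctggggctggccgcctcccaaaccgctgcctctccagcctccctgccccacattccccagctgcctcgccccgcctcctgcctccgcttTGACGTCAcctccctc

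This CRE (69097202 to 69097209) was under both REV-ERBα peaks, centred 222 and 99 bp from their summits and at −1746 bp from the TSS of Per1-201. It was the only CRE in the *Per1* window, and no E-box, D-box or receptor core was found within 100 bp of either summit. Among all REV-ERBα regions in both replicates, 0.871% had a whole CRE within 100 bp of their strongest summit. The CRE of *Per1* does not meet this limit because its last bases lie outside. The same window at the start sites of all transcripts of protein-coding genes held a CRE in 1.44%.

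Weaker REV-ERBα peaks in 1 list only were found at the Per1-201 promoter (replicate 1, −log10 p of 2.88), in the distal part of *Per1* (replicate 2, 2.72), in intron 9 of *Per2* (replicate 2, 1.58) and in intron 5 of *Per3* (replicate 2, 2.97). At 3 of these a single BMAL1 list also had a peak. The values were 4.14 at the Per1-201 promoter, 2.15 in *Per2* intron 9 and 2.92 in *Per3* intron 5. With 1 list of each factor these places did not reach the requirement of 3 lists for a shared site. The BMAL1 peaks in *Per2* intron 9 and *Per3* intron 5 were of replicate 2, the longest list, which had a peak in the window of 84.4% of genes. How often such single-list peaks of both factors meet over the whole lists is not given here.

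**Figure D3:**
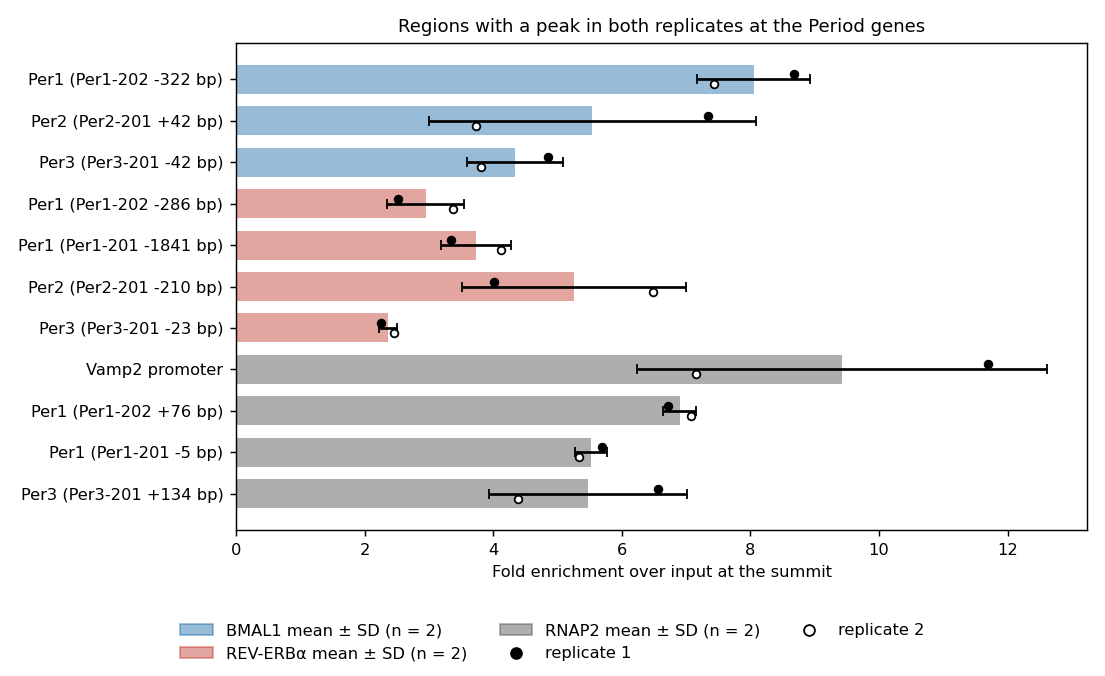
Fold enrichment over input at the summit for the 11 regions with a peak in both replicates. Bars are means with the SD (n = 2), filled and open circles are replicates 1 and 2, and names give the distance of the stronger summit from the nearest TSS. BMAL1 is highest at *Per1* (mean 8.05), REV-ERBα at *Per2* (mean 5.26), and the wide error bars of both factors at *Per2* come from replicates that differ in opposite directions.

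Shared sites, defined by a peak in 3 or more of the 4 lists of BMAL1 and REV-ERBα, were present at 3 of 3 Period genes, against 1.62% of all protein-coding genes in the same window and 0.538% within 1 kb of a TSS. All 3 had peaks in all 4 lists. At all 3 sites the −log10 p of BMAL1 was higher in its replicate 1 than in its replicate 2, and that of REV-ERBα was lower. The whole lists went the same way, with a median −log10 p of 2.48 and 1.87 for BMAL1 and of 2.50 and 2.59 for REV-ERBα. Replicate numbers of different factors come from different samples and times, so no pairing was read from this.

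Summits of both factors were close together at *Per1* and *Per3* and farther apart at *Per2*. At *Per1* the mean REV-ERBα summit lay 3 bp downstream of the mean BMAL1 summit, and at *Per3* it was 35.50 bp downstream. At *Per2* the difference was −262.0 bp, with both REV-ERBα summits upstream of the TSS at −254 and −210 bp and both BMAL1 summits downstream of it. This gap was larger than that between replicates of the same factor at *Per2*, 24 bp for BMAL1 and 44 bp for REV-ERBα, whereas the gaps at *Per1* and *Per3* were smaller than those between their replicates, which ran from 24 to 111 bp. Of the 110 sites with peaks in all 4 lists, 24 were at most 1500 bp wide. Wider sites, which can hold several summits, were left out, and no other width limit was tried. The 24 sites had a median difference of 170 bp and quartiles of 41.1 and 384 bp regardless of direction. A difference at least as large as that of *Per2* was found at 10 of these 24 (41.7%), as large as that of *Per3* at 19 and as large as that of *Per1* at 23.

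**Figure D4:**
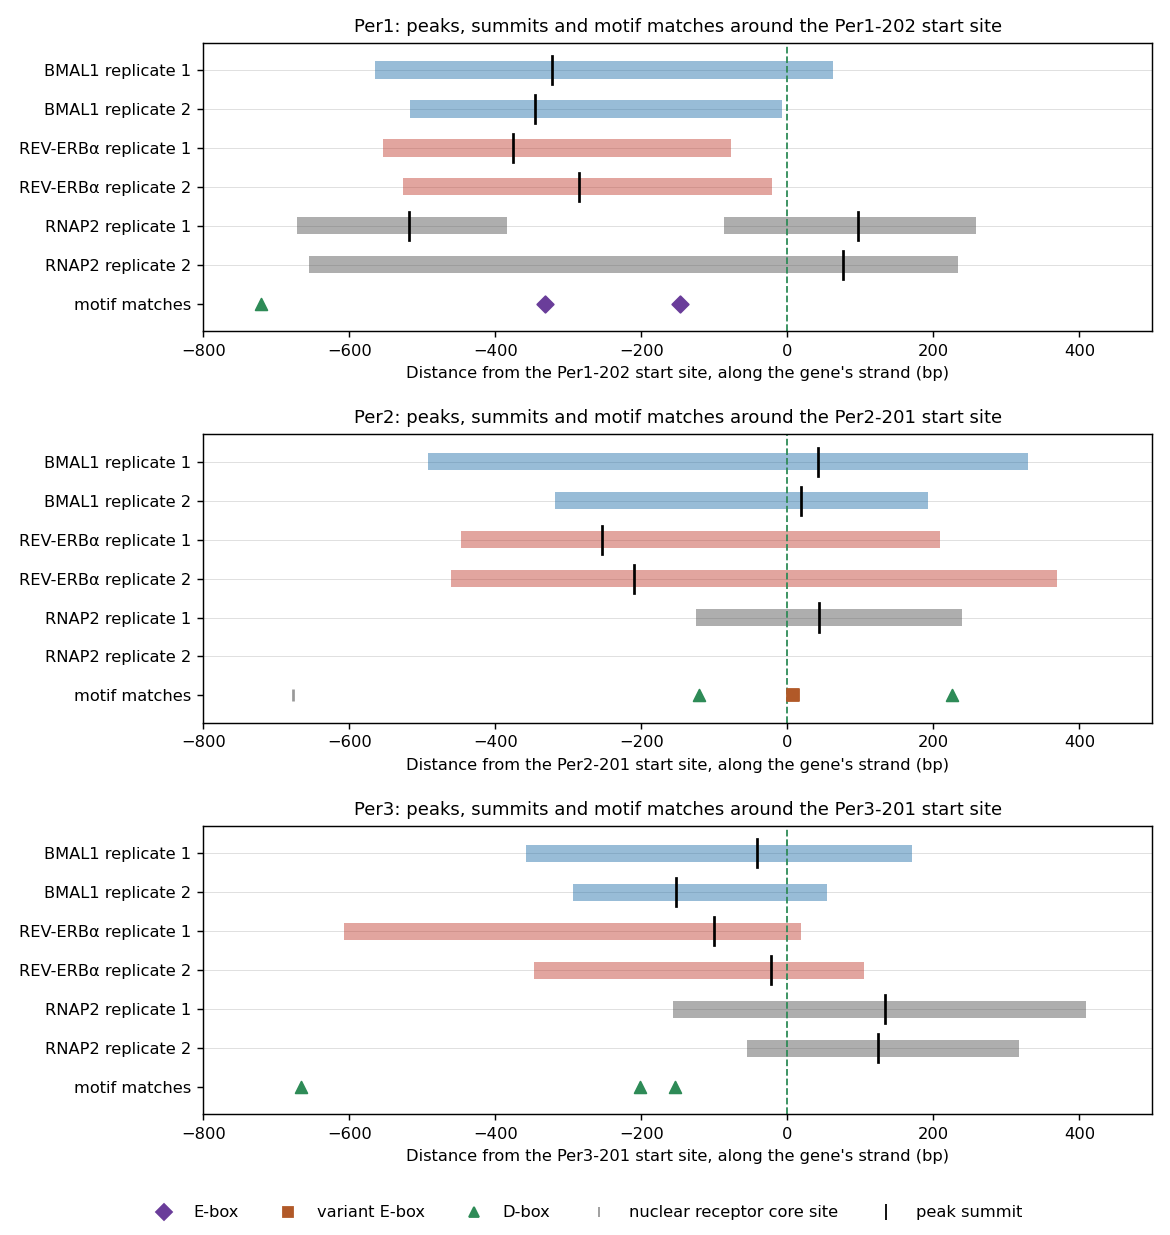
Peaks (bars), summits (black ticks) and motif matches within 800 bp upstream and 500 bp downstream of the start sites of Per1-202, Per2-201 and Per3-201, by distance in bp along the gene. At *Per1* all BMAL1 and REV-ERBα summits surround 1 E-box, at *Per2* the BMAL1 summits are beside the variant E-box and the REV-ERBα summits are upstream of the start, and at *Per3* no E-box of either form is drawn and D-boxes are under the BMAL1 and REV-ERBα peaks.

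The E-box at *Per1* (69094883 to 69094888, starting at −334 bp from the TSS of Per1-202) was centred 10 and 15 bp from the BMAL1 summits and 45 and 46 bp from those of REV-ERBα. The second E-box, at −150 bp, was inside the same peaks of both factors but 175 and 199 bp from the BMAL1 summits. Another, at −165 bp from the TSS of Per1-201, was centred 34 bp from the summit of the weaker BMAL1 peak that replicate 1 alone listed, with a receptor core on the opposite strand that starts at −136 bp. Of 7 E-boxes in the *Per1* window, 2 were under BMAL1 peaks of both replicates and 3 under any BMAL1 peak.

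The study used this upstream site as its positive control for BMAL1 in ChIP followed by quantitative PCR. Its primers match chr11:69094734-69094899 exactly, a product of 166 bp from −483 to −318 bp of the TSS of Per1-202, and the reverse primer covers the E-box, in capitals.
Per1 forward primer: aaagtatgcccactacgccat
Per1 reverse primer: gctgtagggaaCACGTGcag
Both BMAL1 summits and the REV-ERBα summit of replicate 1 were inside this product. The REV-ERBα summit of replicate 2 was 32 bp outside, and the strongest RNAP2 summits were 414 and 394 bp outside.

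*Per2* had no CACGTG under a BMAL1 peak of both replicates, although its window held 5. Its variant E-box CACGTT (91459314 to 91459319) starts at +5 bp from the TSS of Per2-201 and was centred 35 and 11 bp from the BMAL1 summits. The REV-ERBα summits were 262 and 218 bp from it. Of 14 CACGTT matches in the *Per2* window, this was the only one under BMAL1 peaks of both replicates. A D-box at −125 bp lay between the 2 groups of summits, 164 and 140 bp from those of BMAL1 and 133 and 89 bp from those of REV-ERBα. The only CACGTG of *Per2* under any BMAL1 peak was in the 3′ UTR in exon 23, centred 1 bp from the summit of a peak with a −log10 p of 1.40 that was listed in replicate 2 alone. That summit lay 3005 bp from a TSS of the neighbouring *Hes6* and 32822 bp from the nearest TSS of *Per2*.

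*Per3* had 14 E-boxes and 6 variant E-boxes in its window, and 0 of either were under a BMAL1 or REV-ERBα peak. Instead, 2 D-boxes with the same letters TTATGTAA, at −158 and −205 bp from the TSS, were under the BMAL1 and REV-ERBα peaks of both replicates. The nearer one was centred 113 and 2 bp from the BMAL1 summits and 54 and 132 bp from the REV-ERBα summits. The other was 160 and 49 bp from the BMAL1 summits and 101 and 179 bp from those of REV-ERBα. The *Per3* window held 8 D-boxes, that of *Per2* held 5, of which 1 was under peaks of both factors in both replicates, and that of *Per1* held 2, neither under a peak.

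These matches were read beside the share of regions that hold the same letters within 100 bp of the strongest summit of the region. By this rule the D-boxes of *Per3* do not count. No D-box lay within 100 bp of its stronger BMAL1 summit (replicate 1) or of its stronger REV-ERBα summit (replicate 2). CACGTG was within 100 bp of the strongest summit in 2.55% of the BMAL1 and 3.40% of the REV-ERBα regions in both replicates. It was in 4.76% of windows of the same length at start sites of all transcripts of protein-coding genes. For CACGTT the shares were 2.52%, 3.56% and 3.33%, and for the D-box 1.60%, 1.82% and 0.539%. The receptor core AGGTCA, at 10.7%, 13.1% and 9.94% the most common of these, was not found within 100 bp of any BMAL1 or REV-ERBα summit of the regions in both replicates at the Period genes. It occurred 12 times in the *Per1*, 46 times in the *Per2* and 48 times in the *Per3* window, and under a REV-ERBα peak once at *Per1* and once at *Per2*, each in a single list. Pairs of E-boxes (CACGTG or CACGTT) with 6 or 7 bases between them were found 0 times in the 3 windows. These searches found exact letters only and do not show which protein was bound. Start sites are not a matched set for the regions. BMAL1 regions in both replicates were in the window of 1494 genes but within 1 kb of a TSS at 185. The paper reports E-boxes and the REV-ERB motif among the most enriched motifs of both factors, by a motif enrichment that was not repeated here.

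RNAP2, the enzyme that transcribes the genes, was found at the first 2 start sites of *Per1* and at the start of *Per3* in both replicates. At the Per1-202 start (chr11:69094545-69095475) the −log10 p was 12.4 and 14.8 and the fold enrichment 6.72 and 7.08, a mean of 6.90 ± 0.254 (SD, n = 2), with summits at +96 and +76 bp. At the Per1-201 start (chr11:69098142-69100286) the −log10 p was 9.24 and 9.33 and the fold enrichment 5.70 and 5.34, a mean of 5.52 ± 0.251 (SD, n = 2), with summits at −109 and −5 bp. The ranges of these starts did not overlap, the upstream one being higher in both replicates. In replicate 1, the peak at the upstream start was accompanied by a weaker one at −518 bp (−log10 p of 3.74), on the other side of the BMAL1 summits, and in replicate 2 a single peak of 891 bp spanned both positions.

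At *Per3*, the RNAP2 region (chr4:151044256-151044822) reached 13.4 and 9.43 on the −log10 p scale, and its fold enrichment was 6.57 and 4.39, a mean of 5.48 ± 1.54 (SD, n = 2). The summits were at +134 and +124 bp in the 5′ UTR of exon 1, downstream of the BMAL1 and REV-ERBα summits in every list. The fold enrichment of *Per3* overlapped that of the Per1-201 start and was below that of the Per1-202 start in both replicates.

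At *Per2*, RNAP2 was listed at the start site in replicate 1 alone, with a fold enrichment of 5.00, a −log10 q of 4.05 and a summit at +43 bp. Replicate 2 had 4 peaks in the *Per2* window, each at or below the list median, with a −log10 p of at most 1.99 and the nearest summit 3052 bp from the TSS. Those in intron 18 and coding exon 17 lay nearer to a TSS of the neighbouring *Hes6* than to one of *Per2*. Replicate 2 did list peaks at the start sites of *Per1* and *Per3*, and its list was 168821 peaks long against 87870 in replicate 1. The RNAP2 value at *Per2* therefore rests on 1 library, and without read counts the signal of replicate 2 at this start is unknown.

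RNAP2 regions in both replicates were present at 2 of 3 Period genes, against 41.1% of all protein-coding genes in the same window and 30.5% within 1 kb of a TSS. A peak in the window was listed for 76.9% of genes in replicate 1 and 86.5% in replicate 2, and for 3 of 3 Period genes in both. The third RNAP2 region at *Per1* (chr11:69088206-69088827, −log10 p of 26.0 and 14.1) had its summits 6 and 22 bp from a TSS of the neighbouring *Vamp2* and was counted by position only.

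Other genes of the clock, in a list of 23 drawn up with earlier results of these data known, were compared by counts. BMAL1 regions in both replicates were found at 10 of them (43.5%), REV-ERBα regions at 7 (30.4%), RNAP2 regions at 16 (69.6%) and shared sites at 9 (39.1%). The shares of all protein-coding genes were 6.81%, 4.44%, 41.1% and 1.62% in the same order. The REV-ERBα genes were *Nr1d1* and *Nr1d2*, which encode REV-ERBα and REV-ERBβ, the D-box activators *Dbp* and *Tef*, the E-box repressors *Bhlhe40* and *Bhlhe41*, and the clock repressor *Ciart*. All 7 also had BMAL1 and RNAP2 regions in both replicates. The other 3 genes with a BMAL1 region were *Clock*, *Cry1* and *Cry2*. *Per2* had the BMAL1 and REV-ERBα regions of this group without an RNAP2 region in both replicates. *Cry1* and *Cry2*, the partners of PER proteins, had a shared site, which takes a peak of at least 1 REV-ERBα list, but no REV-ERBα region in both replicates.

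For each Period gene, the genes with the most similar values were found by the Euclidean distance over the 6 lists between log2(1 + highest −log10 p in the window). Nearest to *Per1* were *Nr1d1* at a distance of 1.22, *Ciart* at 1.37 and *Nr1d2* at 1.64. The RNAP2 replicate 1 value of *Per1* in this measure is that of the *Vamp2* promoter. Near *Per3* were *Nptn* (1.34) and *Bhlhe41* (1.49). *Per2* had no gene as close, its nearest being *BC028528* (1.97), which shares its BMAL1 and REV-ERBα peaks with its neighbour *Ciart*, *Raet1e* (2.23) and *Ash1l* (2.44). Among themselves the Period genes were farther apart, with a distance of 2.31 between *Per1* and *Per3*, 2.87 between *Per2* and *Per3* and 3.65 between *Per1* and *Per2*. Ordered by distance from *Per1* among protein-coding genes, *Per3* was of rank 11 and *Per2* of rank 35. From *Per2*, *Per3* was of rank 39 and *Per1* of rank 1284. From *Per3*, *Per1* was of rank 153 and *Per2* of rank 1207.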

How the data were processed

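Peaks of BMAL1 (ZT 4), REV-ERBα (ZT 8) and RNAP2 (ZT 4) ChIP-seq were analysed for 2 replicates each. The authors aligned reads to mm10 with BWA (version 7.12 in the submitters' processing notes), removed duplicates and reads of mapping quality under 24, down-sampled replicates and called peaks per sample with MACS2 2.1.1 against input at p = 0.05. The deposited −log10 p, −log10 q and fold enrichment (a ratio to the local input background) are those of the summit, and the summit is given as an offset in bp. The deposited score, −log10 p times 10, was not used. Read counts per peak are unknown, so no counting interval could be given.

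Peaks sharing 1 bp or more formed a region. Windows were the gene body or 10 kb around any TSS (GENCODE M21). Means are given with the SD, and no test was made. Motifs were searched on both strands within 100 bp of summits. 0 peaks passed the ends of the 21 chromosomes of the reference, and 0 columns of sample values were left out. The code was tested on simulated data. Genes, lists and alternatives were chosen with earlier results of these data known. Genes named are the Period genes, the 3 nearest genes to each by distance over the 6 lists, a clock list, tissue markers and neighbours with a nearer TSS. 1 gene named by this rule is not reported here. Python 3.11.15, numpy 2.4.6, pysam 0.24.0 and matplotlib 3.10.9 were used.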

Additional observations from a re-analysis of the deposited data

How the results depend on the processing

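The number of shared sites at the Period genes was 3 under every alternative except when each list was cut at a −log10 q of 1.3, which left 2, with none at *Per3*. That setting left 2 BMAL1 regions (none at *Per2*) and moved the REV-ERBα regions in both replicates from 4 to 1, at *Per2*. Extending the window to 50 kb moved the RNAP2 regions from 4 to 8, including 1 in the *Per2* window. With each list cut at a −log10 p of 3, the counts of all 3 factors and of shared sites stayed at 3, 4, 4 and 3, while the share of protein-coding genes with a BMAL1 region in both replicates went from 6.81% to 0.356%. Lists of equal length, stricter overlap, summits within 250 bp, 5 kb, TSS distance alone and coding transcripts alone kept each count over the 3 genes within 1.5 times, as did 1 kb of a TSS, an alternative added after seeing the data, under which *Per1* kept 1 of its 2 REV-ERBα regions. With 1 replicate left out a region needs a peak only in the other list, and the counts then ran from 5 to 15 for BMAL1, from 5 to 7 for REV-ERBα and from 10 to 14 for RNAP2, while shared sites, needing all 3 lists left, stayed at 3. The higher counts follow from the single list. Motif windows of 50 bp, also added later, left 2 shared sites with CACGTG or CACGTT near a BMAL1 summit, as before. No paired analysis was possible because these results come from no test. The lists hold no read counts, so the depth at a peak is unknown and a missing peak, as for RNAP2 at *Per2* in replicate 2, does not show that signal was absent.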
